A study of Homo sapiens with 12 samples.

Results

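Before a cell copies its genome it loads the MCM helicase onto replication origins, a step called licensing. The origin recognition complex marks the origin, CDC6 and CDT1 bring the helicase, and geminin (GMNN) and the CRL4 ubiquitin ligase that uses DTL as its substrate receptor keep CDT1 from acting again once S phase has begun. TICRR (Treslin) then helps the loaded helicase to fire, while CLSPN (Claspin) carries the signal from the kinase ATR to CHEK1, which restrains CDC25A and thereby the cyclin-dependent kinases when replication is disturbed. Many of these genes are transcribed in late G1 and S phase under control of E2F factors, and p53 can lower such transcription through its target CDKN1A (p21), which keeps the repressor complexes on their promoters active.

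The genes examined are ORC1, ORC6, CDC6, CDT1, GMNN, DTL, CLSPN, TICRR, CHEK1 and CDC25A, 10 of the 20595 genes of the deposited table, matched by Ensembl identifier. They were chosen by name, with earlier results of these data known. Poly-A RNA was sequenced from A549 and H1792, established human lung adenocarcinoma lines with amplified MDM2. The cells had been kept for 48 h with DMSO or with 1 µM RG7112. A549 is p53 WT and H1792 is p53 mutant in most of the study's text, although parts of it give the opposite. Each of the 4 groups (A549 DMSO, A549 RG7112, H1792 DMSO, H1792 RG7112) held 3 replicates, which made 12 samples. RG7112 is a nutlin-type inhibitor that occupies the p53-binding pocket of MDM2. The labels and the methods give the dose as 1 µM, whereas the columns of the table carry a lower dose in their names. Each genotype is represented by a single cell line, so p53 status and every other difference between A549 and H1792 cannot be told apart.

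Depth, in the gene counts estimated by the authors, came to totals of 2011916 to 6218825 per sample. CPM below means counts divided by library size on the usual CPM scale after TMM scaling over the 12 samples, and 3 counts corresponded to 0.483 to 1.39 CPM, a limit that covers counting error only. As a check of the treatment, CDKN1A was 44.2, 43.5 and 24.0 CPM in A549 DMSO and 211, 185 and 960 CPM in A549 RG7112 (log2 fold change 3.58, edgeR adjusted p = 0.0252). MDM2 rose by 3.00 on the log2 scale in A549 (adjusted p = 0.0102). In H1792 the log2 fold changes were 0.15 for CDKN1A and -0.05 for MDM2 (adjusted p = 0.882 and 0.928). Of the epithelial markers, the 4 keratins were present in both lines (KRT8 at 594 CPM or more), whereas EPCAM was at most 1.45 CPM in A549 and 6.42 CPM in H1792, and CDH1 was 1.74 to 21.3 CPM in A549 and at most 1.05 CPM in H1792. Of the lung lineage genes, NKX2-1, SFTPB and SFTPC stayed at or below 0.554 CPM, and NAPSA was 1.49 to 5.81 CPM in A549 and at most 0.843 CPM in H1792. PTPRC and PECAM1 stayed at or below 0.436 CPM. COL1A2, a fibroblast collagen, was 917 to 1090 CPM in H1792 and at most 1.38 CPM in A549.

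The promoters of these genes are shown first because E2F-type letters are what most of them have in common. RefSeq windows (GRCh38.p14) from 250 bases before to 50 after an annotated start were found for all 10 genes, in 14 windows. An 8-letter E2F motif (TTTCCCGC, TTTGGCGC, TTTCGCGC or TTTGCCGC, on either strand) was found in 6 of the 10 genes, namely CDC6, CDT1, GMNN, DTL, CLSPN and CDC25A. In GMNN it lay in the window at chr6:24775163-24775462 and not in the window at chr6:24774687-24774986. The same letters occurred in 3.99% of 27305 genes and in 3.31% of 35116 windows. Its 6-letter core (the same letters without the first and the last, on either strand) was found in all 10 genes and in 35.1% of genes overall. The CCAAT box (CCAAT on either strand), which can overlap the core by a base or more, was found in 9 of the 10 genes, with CDT1 the exception, and in 39.7% of all genes. The CHR letters (TTTGAA on either strand) were in none of the windows of these genes and in 15.2% of all windows. A match is a run of letters and says nothing of binding in these cells.

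The 30-base stretches below hold the E2F-type letters, in capitals, of the genes on which the results turn. They are written 5′ to 3′ on the strand of the gene. They cover the 6 genes that passed the test in A549 and ORC6, which did not.
CDC6: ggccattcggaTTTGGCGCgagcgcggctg
CDT1: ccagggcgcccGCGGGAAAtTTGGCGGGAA
GMNN: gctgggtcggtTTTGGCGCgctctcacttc
DTL: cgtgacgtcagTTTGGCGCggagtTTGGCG
CLSPN: actctggctggGCGGGAAAgcaagaacagc
TICRR: ccctccaatcacCGCCAAaaatggaagttg
ORC6: ccgcggcgttcaCGGGAAttgttcgcttta
They lie at chr17:40287875-40287904 (CDC6, plus strand), chr16:88803743-88803772 (CDT1, plus), chr6:24775322-24775351 (GMNN, plus), chr1:212035729-212035758 (DTL, plus), chr1:35769965-35769994 (CLSPN, minus), chr15:89575350-89575379 (TICRR, plus) and chr16:46689665-46689694 (ORC6, plus). The stretches of CDC6, GMNN and DTL carry the identical 8 letters TTTGGCGC. CDT1 and CLSPN carry GCGGGAAA, the reverse complement of TTTCCCGC. TICRR and ORC6 have the 6-letter core only. From the RefSeq start the stretches run -4 to 26 (CDC6), -46 to -17 (CDT1), -91 to -62 (GMNN) and -19 to 11 (DTL). The others run -16 to 14 (CLSPN), -119 to -90 (TICRR) and 7 to 36 (ORC6). Those of CDC6, CDT1, DTL, CLSPN and ORC6 overlap a GENCODE exon, and those of GMNN and TICRR do not.

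**Figure D1:**
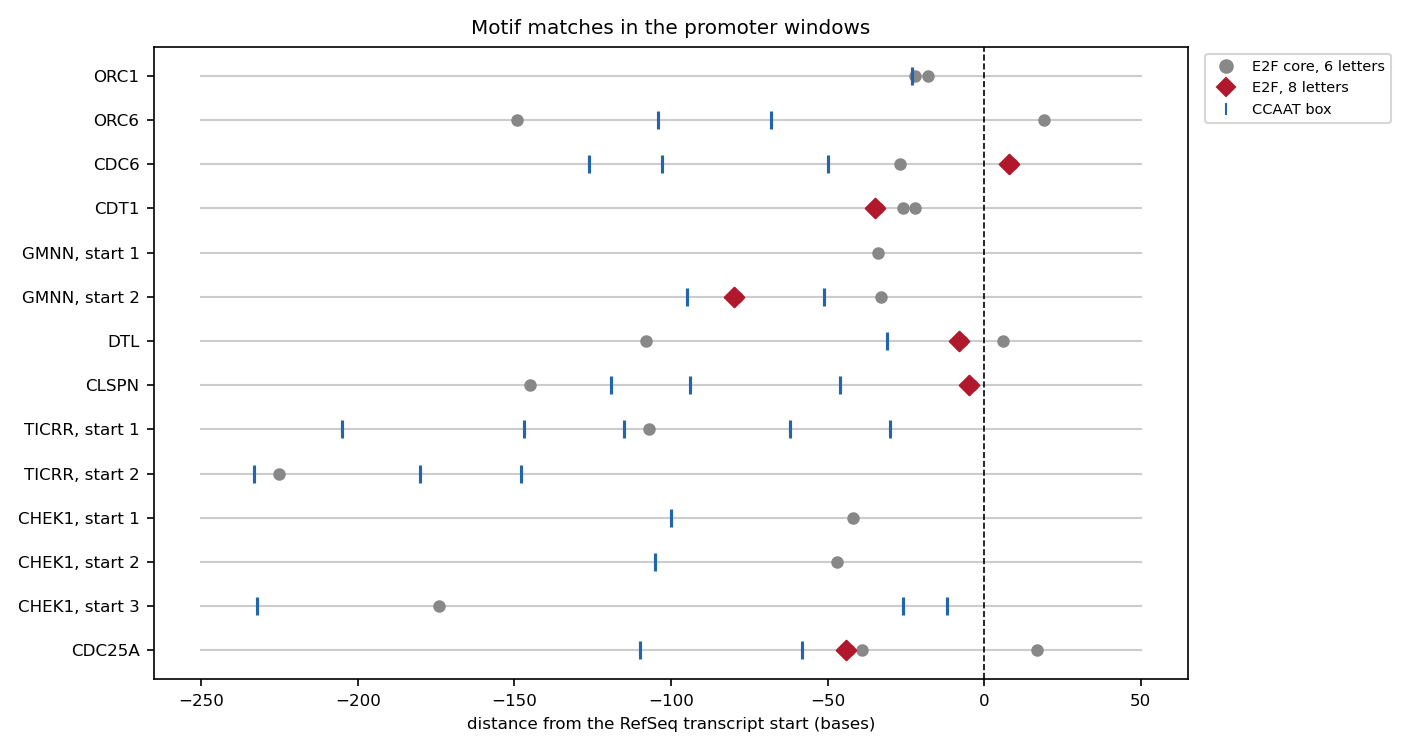
Each line is a 300-base RefSeq promoter window, with the distance from the annotated start in bases on the horizontal axis; grey circles mark the 6-letter E2F core, red diamonds the 8-letter E2F motif and blue bars the CCAAT box. The 8-letter motif begins within 80 bases before or 8 bases after a RefSeq start in the 6 genes that hold it. The windows of ORC1, ORC6, TICRR and CHEK1 hold the core without the 8-letter motif.

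The first comparison asked how RG7112 moved these genes in A549. CDC6, CDT1, GMNN, DTL, CLSPN and TICRR fell, and the estimates of ORC1, ORC6 and CHEK1 were also below 0 but did not pass the test. A gene passed when its adjusted p from edgeR's quasi-likelihood test was under 0.05 and its log2 fold change lay beyond 1 in either direction. Of the 10 genes, 9 had enough counts to be tested in A549, and 6 passed, all lower, against 3.01% of the 10739 genes tested (3.18% were higher). The median log2 fold change of the 9 tested genes was -2.80, whereas the median over all tested genes was -0.01. Per sample, 7 genes had every RG7112 value below every DMSO value, against 15.4% of all tested genes with such a separation downward and 16.3% upward. The 10 genes summed to 257, 216 and 237 CPM in the DMSO samples and to 52.0, 39.9 and 40.4 CPM with RG7112. In bulk RNA, fewer cells in the phases that express these genes and less RNA per cell cannot be told apart.

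In H1792 the same treatment left no such common direction. TICRR fell and none of the others passed the test, so that 1 of the 9 tested genes was lower, against 4.34% of the 9914 genes tested, and 0 were higher, against 10.3%. The estimates were negative for 5 genes and positive for 4, with a median of -0.002 beside 0.01 over all genes. ORC1, CLSPN and TICRR had every RG7112 value below every DMSO value, and CDC6, GMNN and DTL had every RG7112 value above. Such separation was common in H1792, at 24.2% of all tested genes downward and 28.4% upward. The sums over the 10 genes were 246, 228 and 247 CPM with DMSO and 174, 221 and 208 CPM with RG7112. Across genes, the H1792 responses went with transcript GC content (Spearman's rho -0.481 over 9165 genes, which are not independent replicates), and in A549 rho was 0.250 over 9941 genes.

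**Figure D2:**
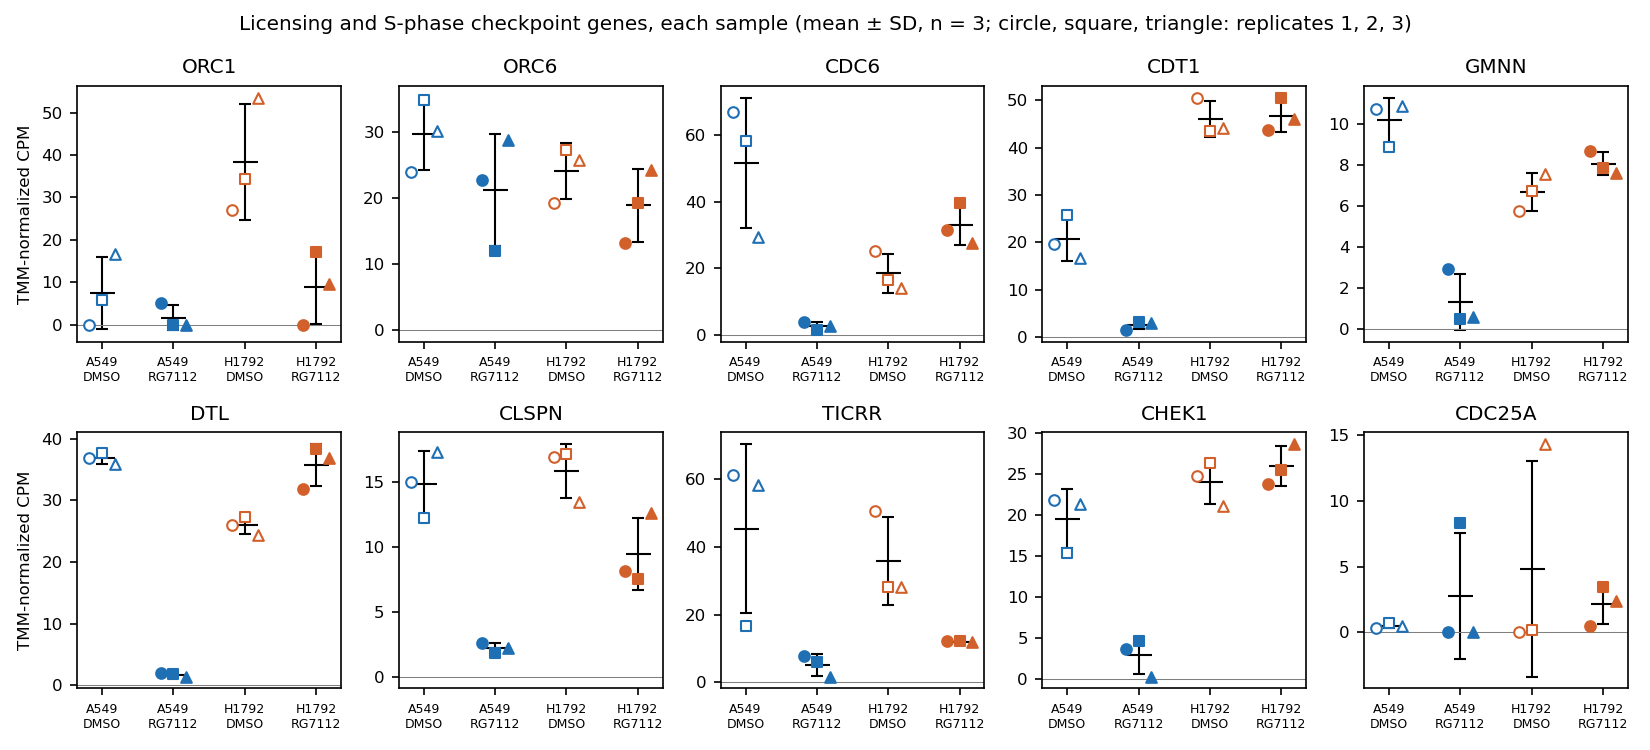
TMM-normalized CPM of each gene in each sample on its own linear axis, with open symbols for DMSO, filled symbols for RG7112, blue for A549 and orange for H1792; black bars are mean ± SD (n = 3). DTL in A549 fell from 35.9 to 37.7 CPM with DMSO to 1.38 to 1.93 CPM with RG7112, while ORC1 and CDC25A were at 0 in some samples of a group and not in others.

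ORC1 and ORC6 are subunits of the origin recognition complex. ORC1 (ENSG00000085840, chr1:52372829-52404459, minus strand) was at 0, 5.76 and 16.6 CPM in A549 DMSO and at 5.15, 0 and 0 CPM in A549 RG7112. It was at 27.1, 34.4 and 53.5 CPM in H1792 DMSO and at 0, 17.2 and 9.53 CPM in H1792 RG7112. The A549 samples therefore overlapped and the H1792 samples did not, but the spread was wide in both lines. The log2 fold changes of ORC1 were -1.91 ± 1.55 (SE) in A549 and -2.09 ± 0.96 in H1792, with adjusted p of 0.526 and 0.137. The A549 value was -0.62 without replicate 3 of DMSO, and leaving out replicate 1 of RG7112 left no ORC1 counts in the treated A549 group. Without replicate 1 of H1792 RG7112, the sample with no ORC1 counts, ORC1 passed the test in H1792 (adjusted p = 0.0390, log2 fold change -1.53).

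ORC6 (ENSG00000091651, chr16:46689643-46698394, plus strand) had 24.0, 34.9 and 30.2 CPM in A549 DMSO and 22.7, 12.1 and 28.8 CPM with RG7112. In H1792 it had 19.3, 27.2 and 25.7 CPM with DMSO and 13.2, 19.3 and 24.3 CPM with RG7112. The treatments overlapped in each line. Its log2 fold change was -0.50 ± 0.32 in A549 (adjusted p = 0.411), the smallest of the 9 tested genes there, and -0.37 ± 0.27 in H1792 (adjusted p = 0.323). With RG7112 in A549, ORC6 had the highest level per length of the 10 genes (4.92 ± 1.96 CPM per kb, SD, n = 3), above every value of the next gene, CDT1.

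CDC6, the ATPase that completes the loading machinery at the origin, lay at chr17:40287633-40304657 (plus strand, ENSG00000094804). Its level was 67.0, 58.3 and 29.5 CPM in A549 DMSO and 3.70, 1.39 and 2.49 CPM in A549 RG7112. Every treated sample was thus far below the lowest control. CDC6 fell by 4.26 ± 0.45 on the log2 scale (19.2-fold lower, adjusted p = 0.00249). In H1792 it was 25.1, 16.3 and 13.9 CPM with DMSO and 31.6, 39.6 and 27.6 CPM with RG7112, so that all treated samples were above the controls. That difference (log2 fold change 0.81 ± 0.27) did not pass the test, with adjusted p = 0.0563. It passed, upward, without replicate 1 of H1792 DMSO (log2 fold change 1.09, adjusted p = 0.0214). Over 16 alternative settings, with edgeR or DESeq2, CDC6 passed in 2 in H1792. Its estimate there ranged from 0.43 to 1.09 and its adjusted p from 0.0214 to 0.230.

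CDT1 brings the MCM helicase to the origin together with CDC6 (ENSG00000167513, chr16:88803213-88809258, plus strand). It was 19.7, 25.9 and 16.6 CPM in A549 DMSO and 1.45, 3.25 and 3.05 CPM in A549 RG7112. CDT1 fell by 3.07 ± 0.41 on the log2 scale (8.40-fold lower, adjusted p = 0.00614), with no overlap of the treatments. In H1792 the values were 50.4, 43.6 and 44.3 CPM with DMSO and 43.7, 50.6 and 46.0 CPM with RG7112. These overlapped, and the log2 fold change was -0.002 ± 0.13 (adjusted p = 0.991). CDT1 transcripts had the highest GC content of the 10 genes, 64.9%, and after correction for GC content the H1792 value was 0.54 (adjusted p = 0.0490, under the fold threshold).

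GMNN, the inhibitor that binds CDT1 after S phase has begun (ENSG00000112312, chr6:24774931-24786099, plus strand), was the least abundant of the tested genes by CPM in A549 DMSO apart from ORC1. Its values there were 10.8, 8.91 and 10.9 CPM, and 2.90, 0.464 and 0.554 CPM with RG7112, the last pair resting on 1 and 2 counts. GMNN fell by 2.78 ± 0.63 on the log2 scale (adjusted p = 0.0407). The call was close to the threshold, since it was lost without each of the 3 DMSO samples (adjusted p 0.0975 to 0.122) and without replicate 2 or 3 of RG7112 (0.107 and 0.0824). In H1792 GMNN was 5.75, 6.75 and 7.59 CPM with DMSO and 8.69, 7.88 and 7.62 CPM with RG7112, higher in every treated sample by a small margin. The log2 fold change was 0.25 ± 0.25 (adjusted p = 0.488), and it was -0.24 after GC correction.

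CDT1 and its inhibitor GMNN can be set side by side per length. In DMSO the ratio of CDT1 to GMNN, each in CPM per kb, was 1.36, 2.15 and 1.13 in A549 and 6.51, 4.79 and 4.33 in H1792. The H1792 samples all had the larger ratio, which is given as a description without a test. With RG7112 the ratio was 3.73, 4.76 and 4.48 in H1792. In A549 RG7112 it spread from 0.371 to 5.20, and no comparison was made because GMNN had 1 and 2 counts in a pair of the samples.

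DTL recruits the CRL4 ligase to CDT1 on replicating DNA (ENSG00000143476, chr1:212035553-212107400, plus strand). Its values lay close together within each A549 group, at 36.9, 37.7 and 35.9 CPM in A549 DMSO and 1.93, 1.86 and 1.38 CPM in A549 RG7112. DTL fell by 4.41 ± 0.27 on the log2 scale, 21.3-fold, with the smallest adjusted p of the 10 genes in A549 (0.000326) and rank 16 by p among all tested genes. In H1792 it was 26.1, 27.2 and 24.4 CPM with DMSO and 31.9, 38.3 and 36.9 CPM with RG7112, all treated samples above the controls. The log2 fold change of 0.44 ± 0.14 did not pass the test (adjusted p = 0.0563). DTL transcripts contain 42.1% GC, and the H1792 value after GC correction was -0.13.

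TICRR, which cooperates with MTBP and TOPBP1 to start the helicase, was the one gene of the set that passed the test in both lines (ENSG00000140534, chr15:89575482-89631056, plus strand). It was 61.4, 16.6 and 58.2 CPM in A549 DMSO and 7.88, 6.03 and 1.66 CPM in A549 RG7112. In H1792 it was 50.8, 28.3 and 28.2 CPM with DMSO and 12.1, 12.1 and 11.9 CPM with RG7112. All treated samples were below the controls in each line, although replicate 2 of A549 DMSO was far below the other controls. The fall of TICRR was -3.12 ± 0.69 as a log2 fold change in A549 (8.72-fold lower, adjusted p = 0.0377) and -1.59 ± 0.28 in H1792 (3.02-fold lower, adjusted p = 0.00785).

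The A549 call for TICRR was lost without replicate 1 or 3 of DMSO (adjusted p = 0.116 and 0.0940) and without replicate 1, 2 or 3 of RG7112 (0.0860, 0.109 and 0.0744). In H1792 it was kept without any single sample, and lost without replicate 3 of both treatments (adjusted p = 0.0653). TICRR overlaps KIF7 on the opposite strand, and whether the counting used strand is not given in the sources used here. Its promoter is shown at greater length because it is the called gene without the 8-letter E2F motif, with the core again in capitals, for the 150 bases before the start at chr15:89575319-89575468 (plus strand).
TICRR: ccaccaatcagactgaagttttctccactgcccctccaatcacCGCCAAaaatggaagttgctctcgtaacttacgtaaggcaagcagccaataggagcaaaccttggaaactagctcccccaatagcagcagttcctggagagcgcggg
This run holds 1 core and several CCAAT letters in lower case.

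CLSPN, the adaptor that lets ATR phosphorylate CHEK1, lay at chr1:35720218-35769967 on the minus strand (ENSG00000092853). It was 15.1, 12.2 and 17.4 CPM in A549 DMSO and 2.57, 1.86 and 2.21 CPM in A549 RG7112. CLSPN fell by 2.72 ± 0.33 on the log2 scale (6.61-fold lower, adjusted p = 0.00427), and the treatments did not overlap. In H1792 it was 16.9, 17.2 and 13.5 CPM with DMSO and 8.16, 7.52 and 12.6 CPM with RG7112. All treated samples were again the lower, but the log2 fold change of -0.78 ± 0.28 did not pass the test (adjusted p = 0.0708). It passed without replicate 3 of H1792 RG7112 (log2 fold change -1.05, adjusted p = 0.0422) and after GC correction (-1.20, adjusted p = 0.0210).

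CHEK1, the checkpoint kinase (ENSG00000149554, chr11:125625136-125676255, plus strand), was 21.8, 15.4 and 21.3 CPM in A549 DMSO and 3.70, 4.64 and 0.277 CPM in A549 RG7112, the last value being 1 count. Every treated sample was below the controls. The log2 fold change of -2.80 ± 0.70 missed the threshold at adjusted p = 0.0568. It passed in the fit without replicate 3 of RG7112, the sample with 1 count (-2.25, adjusted p = 0.0204). In H1792 CHEK1 was 24.7, 26.4 and 21.1 CPM with DMSO and 23.7, 25.5 and 28.6 CPM with RG7112, with a log2 fold change of 0.08 ± 0.17 (adjusted p = 0.738). CHEK1 overlaps STT3A on its own strand and ACRV1 on the other.

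CDC25A, the phosphatase that CHEK1 marks for destruction (ENSG00000164045, chr3:48157146-48188402, minus strand), had too few counts to be tested within either line. It had 1, 4 and 2 counts in A549 DMSO, and 0, 18 and 0 in A549 RG7112. In H1792 the counts were 0, 1 and 34 with DMSO and 2, 19 and 10 with RG7112. The groups overlapped in both lines, and no fold within a line is given. Its counts varied widely between replicates of a group, from 0 to 34 in H1792 DMSO. Its promoter holds the 8-letter E2F motif.

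**Figure D3:**
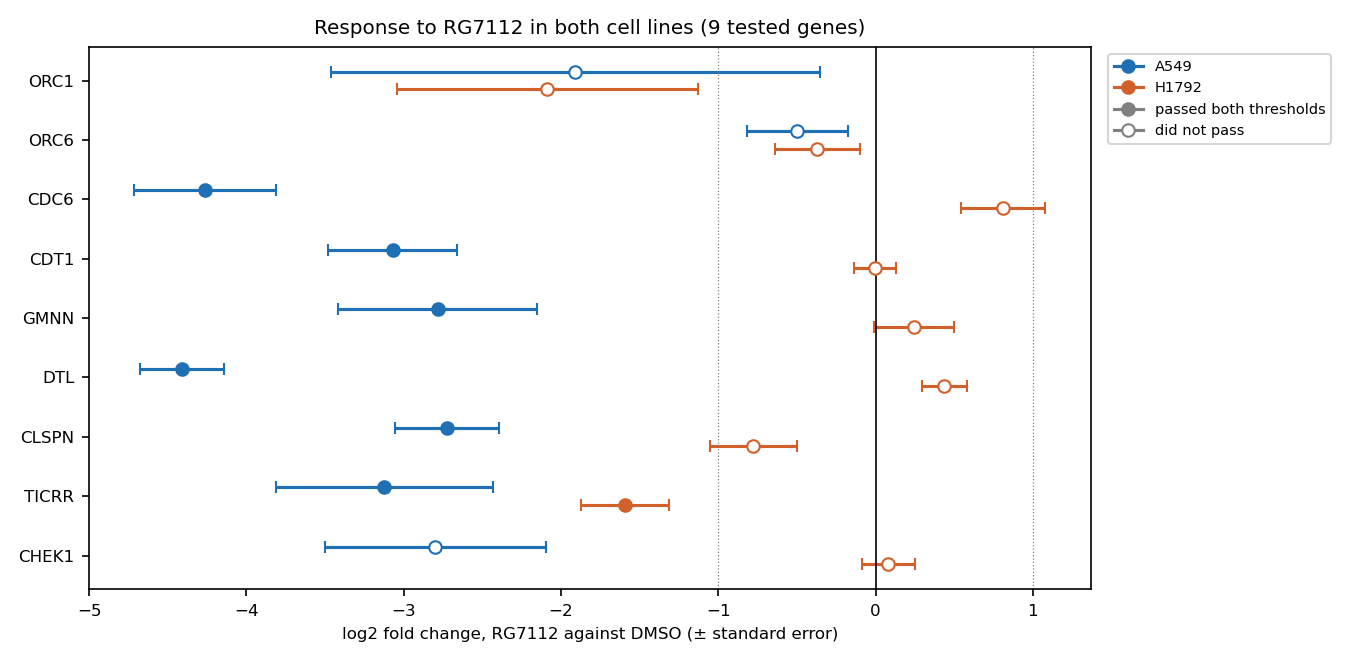
Log2 fold change (RG7112 against DMSO) of the 9 tested genes with its standard error, blue for A549 and orange for H1792; filled points passed the adjusted p and fold thresholds, and dotted lines mark a log2 fold change of 1 in either direction. In A549 all 9 estimates lie below 0, from -4.41 (DTL) to -0.50 (ORC6), whereas TICRR is the single filled point in H1792.

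The difference between the responses of the lines was tested directly, in one fit over the 12 samples with the interaction of line and treatment. The responses of CDC6, CDT1, GMNN, DTL, CLSPN and CHEK1 were lower in A549 than in H1792. Hence 6 of the 10 genes passed on the adjusted p alone, against 11.4% of the 11666 genes tested that were lower in A549. DTL had the smallest adjusted p, with a difference of -4.77 ± 0.26 on the log2 scale (adjusted p = 2.02e-06). CDC6 differed by -4.99 ± 0.54 (adjusted p = 0.000225) and CDT1 by -3.02 ± 0.39 (adjusted p = 0.000672). GMNN (-2.95), CHEK1 (-2.81) and CLSPN (-1.87) followed with adjusted p of 0.0132, 0.0176 and 0.0103. For TICRR the difference was -1.46 ± 0.77 (adjusted p = 0.199), so that its fall was not shown to differ between the lines. ORC1 (0.34 ± 1.98), ORC6 (-0.05 ± 0.44) and CDC25A (3.32 ± 2.62) did not pass. The CDC25A value came from uneven counts (0, 18 and 0 in A549 RG7112, and 0, 1 and 34 in H1792 DMSO). All 6 calls were kept without any single sample, and after GC correction.

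The untreated lines were then compared, to see whether they started from the same levels. CDC6 was higher in A549 DMSO than in H1792 DMSO by 1.42 ± 0.35 on the log2 scale (adjusted p = 0.00644), and CDT1 was lower by a difference of -1.22 ± 0.25 (adjusted p = 0.00207). These were 2 of 10 genes past both thresholds, a share below the 34.9% of all genes that passed in either direction. DTL differed by 0.44 ± 0.16 with adjusted p = 0.0455, under the fold threshold. For the other 7 genes the adjusted p ranged from 0.157 (ORC1, -2.40 ± 1.32) to 0.675 (TICRR, 0.29 ± 0.52). The summed levels of 216 to 257 CPM in A549 DMSO and 228 to 247 CPM in H1792 DMSO overlapped. This comparison and the responses share the DMSO samples.

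**Figure D4:**
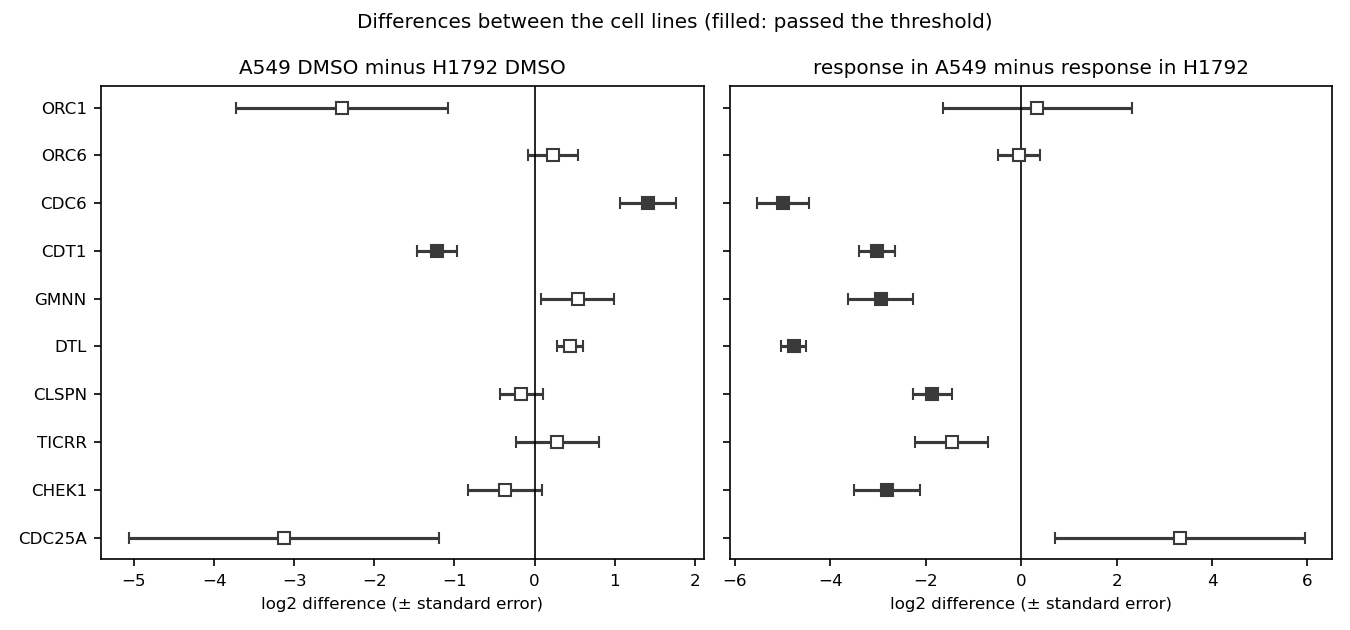
Log2 differences of the 10 genes with their standard errors; the left panel gives A549 DMSO minus H1792 DMSO and the right panel the response in A549 minus the response in H1792. Filled squares passed the threshold, which are CDC6 and CDT1 on the left and CDC6, CDT1, GMNN, DTL, CLSPN and CHEK1 on the right.

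Levels between genes were compared per length, as CPM per kb of merged exons. In A549 DMSO the means ran from CDC6 (9.29 ± 3.53, SD, n = 3) through DTL (7.49), ORC6 (6.90), CDT1 (6.21), TICRR (5.41), GMNN (4.12), CHEK1 (2.97), CLSPN (2.75) and ORC1 (2.36) to CDC25A (0.122). Only GMNN and CHEK1 were neighbours in that order whose samples did not overlap. In A549 RG7112 ORC6 stood above the other 9, which lay between 0.351 (DTL) and 0.774 (CDT1) and overlapped with their neighbours. By its mean DTL went from rank 2 to rank 10, but neither rank was separated from its neighbours. With RG7112, ORC1 (5.15, 0 and 0 CPM) and CDC25A (0, 8.35 and 0 CPM) ranked above DTL on uneven samples. In H1792 DMSO, CDT1 (13.8 ± 1.14) and ORC1 (12.1 ± 4.32) overlapped each other and were above the samples of the third gene, ORC6 (5.59 ± 0.977). With RG7112 in H1792, CDT1 (14.0 ± 1.05) stood alone above DTL (7.26 ± 0.692).

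A list of 60 further genes of the pathway, also drawn up with earlier results of these data known, was counted by role. In A549, 52 were tested, of which 12 were lower and 1 was higher (CDKN1A), beside 3.01% and 3.18% of all tested genes, with a median of -0.94 on the log2 scale. In H1792, 50 were tested, of which 3 were lower and 5 higher, with a median of 0.28. These counts are near the 4.34% and 10.3% of all tested genes, and the role groups that follow are read against the same shares. On the direct test of the difference, 28 of 57 genes were lower in A549, beside 11.4% of all tested genes, and 2 were higher (CDKN1A and DDB1).

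None of the other origin recognition genes passed edgeR's test in either line (4 tested in A549, 1 of them with an unadjusted p under 0.05, and 3 in H1792, 0 of them). The smallest p in that group belonged to ORC3 in A549 (log2 fold change -0.90, adjusted p = 0.132) and to LRWD1 in H1792 (0.82, adjusted p = 0.118). Of the 7 helicase genes, MCM4, MCM5 and MCM7 fell in A549. MCM5 went from 339, 391 and 391 CPM with DMSO to 38.9, 31.1 and 46.8 CPM with RG7112 (log2 fold change -3.27 ± 0.17, adjusted p = 0.000283). In H1792 MCM5 moved by -0.45 (adjusted p = 0.00663, under the fold threshold). There MCM3 (-1.19, adjusted p = 0.00529) and MCM6 fell and MCM2 rose. MCM6 had 25, 40 and 17 counts in H1792 DMSO and 3, 0 and 0 with RG7112 (adjusted p = 0.00835), while MCM2 had 18.3, 0.218 and 13.9 CPM with DMSO and 85.3, 134 and 112 CPM with RG7112 (adjusted p = 0.0251). The 3 calls among the 7 helicase genes in H1792 thus went in both directions, beside 4.34% lower and 10.3% higher of all tested genes. No result for the complex is read from them. MCM2 was uneven, with 54, 1 and 33 counts in H1792 DMSO, and the other settings were not examined for single pathway genes.

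Of the genes for origin firing, 5 of 11 tested fell in A549, namely MCM10, CDC45, RECQL4, DBF4B and CDC7. MCM10, which joins the helicase as it is activated, was 83.3, 84.2 and 66.4 CPM with DMSO and 2.90, 1.86 and 1.66 CPM with RG7112 (log2 fold change -5.13 ± 0.28, adjusted p = 0.000326). CDC45, a part of the active helicase, fell by 4.56 ± 0.34 on the log2 scale (adjusted p = 0.000700). Among the 12 tested in H1792, DBF4, the activator of the kinase CDC7, was the only one that passed, with a log2 fold change of 1.66 ± 0.33 (adjusted p = 0.0109).

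The ligase partners and substrates of DTL gave no common direction. CDKN1A, itself a substrate of the ligase, was the one called gene of 5 in A549. In H1792 DDB1, the adaptor of the ligase, fell by 1.82 ± 0.23 on the log2 scale (adjusted p = 0.00402), and KMT5A, a histone methyltransferase degraded through DTL, rose by 1.41 ± 0.24 (adjusted p = 0.00758). Among other regulators of licensing, CDK2 fell in A549 (log2 fold change -1.51, adjusted p = 0.0193) and rose in H1792 (1.51, adjusted p = 0.00851). SKP2, a receptor of another ligase that acts on CDT1, rose in H1792 (1.87, adjusted p = 0.0331).

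Of the 14 checkpoint genes, all tested in A549, TIMELESS (-1.73, adjusted p = 0.00142) and RPA3 (-1.71, adjusted p = 0.00521) fell there. None of the 12 tested in H1792 passed both thresholds in edgeR (7 had an unadjusted p under 0.05), and the smallest p was that of RPA2 (0.99, adjusted p = 0.0102). Among the 5 genes that act on cyclin-dependent kinases, PKMYT1, an inhibitory kinase, fell in A549 (-2.79, adjusted p = 0.00130). None passed in H1792 (2 had an unadjusted p under 0.05), where CDC25C had the smallest p (0.95, adjusted p = 0.0391, under the fold threshold).

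**Figure D5:**
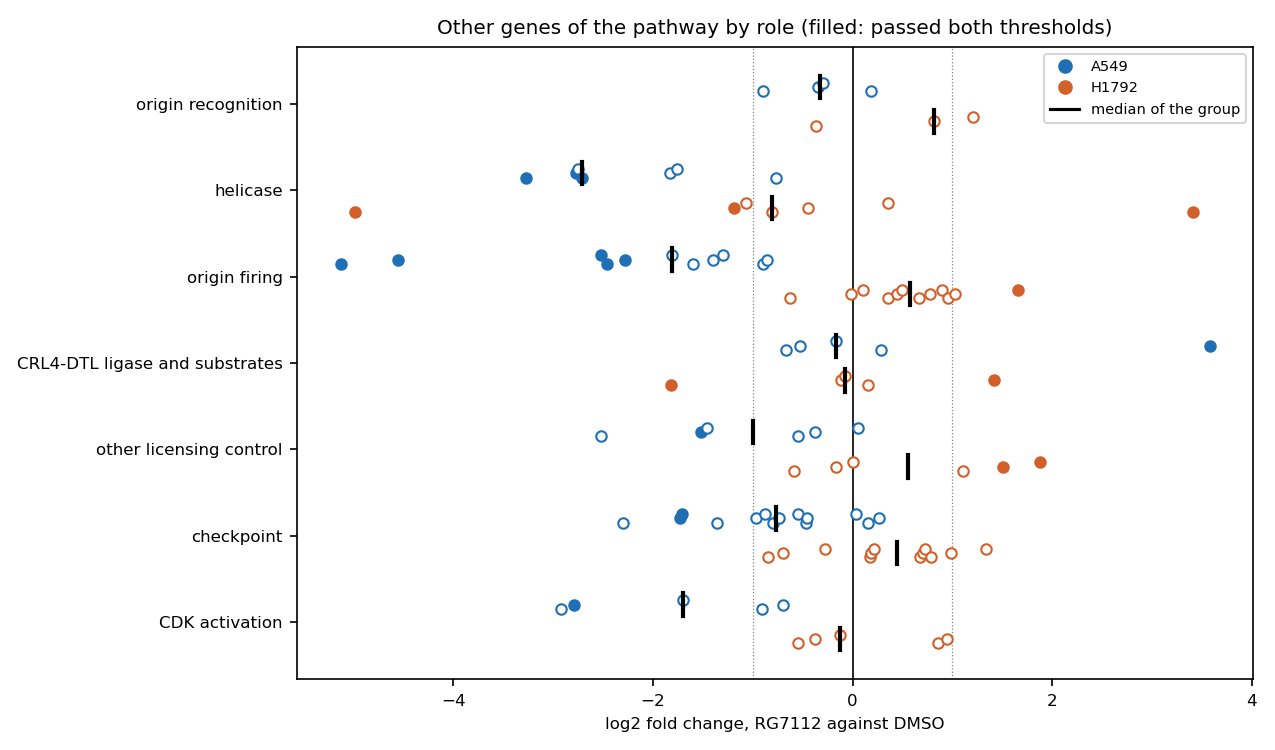
Log2 fold change of each tested gene of the 60 pathway genes by role, blue for A549 and orange for H1792; filled points passed both thresholds and black bars are medians of the role. In A549 the helicase and origin firing groups have medians of -2.71 and -1.81, whereas in H1792 they are -0.81 and 0.58.

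The genes whose pattern was most like that of the set were found by Pearson's r, over the 12 samples, with the mean of the z-scored log2(CPM + 1) of the 10 genes. They were TROAP (0.965), PIF1 (0.964), BIRC5 (0.964), MYBL2 (0.964) and UBE2C (0.963). On that mean, the A549 RG7112 samples lay at -1.40 to -0.950 and all other samples at -0.0799 to 0.668, so the coefficients rest on the separation of that group and carry no p.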

How the data were processed

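RNA-seq of 12 samples was analysed from the table the authors deposited. The deposited values are estimated counts (expected counts, whole numbers) per gene, which the authors obtained with kallisto 0.45.0 on the Ensembl GRCh38 transcriptome (release 95 per the methods) and aggregated to genes with biomaRt. Read length and sequencer differ between the labels and the methods. Multi-mapped reads are shared out by the estimate, so values of overlapping or similar genes are uncertain.

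A rounding step was applied to the counts, which are whole numbers as deposited. Genes with low counts were removed with filterByExpr (minimum count 10, minimum total 15), factors were computed with TMM, and responses were tested within each line with the quasi-likelihood test of edgeR 4.0.16 (robust, R 4.3.3) and Benjamini-Hochberg adjustment over all tested genes. The difference between responses and the comparison of DMSO samples came from 1 fit of the 12 samples. Standard errors are the absolute log2 fold change divided by the square root of F. DESeq2 1.42.0, which the methods name, was an alternative. The script was tested on simulated data with the same dispersion for every gene and no effect shared by replicates. It therefore does not show how the test behaves with the uneven replicates described below. Positions and lengths are from GENCODE 29 on GRCh38 and promoters from RefSeq.

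The genes of the set, the pathway list and the tests were chosen with earlier results of these data known. All genes of the set are named, with pathway genes called in either line or with the smallest p in their role, and the 5 genes most like the set. The labels do not say whether replicates were separate cultures, so p-values measure the spread between these samples, which may be technical. Replicates differed beyond counting noise (chi-square per degree of freedom 5.38 to 25.6). In A549 the pairs that held replicate 3 had 17.2 to 25.6, and the pairs of replicates 1 and 2 had 5.93 (DMSO) and 5.38 (RG7112). Same-numbered samples were checked for pairing, as given in the closing section.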

Additional observations from a re-analysis of the deposited data

Results flagged for a closer look

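The responses of 6 genes differed between the cell lines by the interaction term of edgeR's quasi-likelihood test, with A549 lower in each (3 samples per group). The differences, the A549 log2 fold change minus that of H1792, were -4.99 for CDC6, -3.02 for CDT1, -2.95 for GMNN, -4.77 for DTL, -1.87 for CLSPN and -2.81 for CHEK1. CDC6, GMNN and DTL were lower in every treated A549 sample and higher in every treated H1792 sample than in any of the matching controls. Among all tested genes, 15.4% were separated downward in A549 and 28.4% upward in H1792. None of CDC6, GMNN and DTL passed the test in H1792. The CDC6 estimate there ranged from 0.43 to 1.09 over the alternative settings. The GMNN margin there was 7.62 against 7.59 CPM, and after GC correction the H1792 estimates were -0.24 for GMNN and -0.13 for DTL. CHEK1 passed on the difference although its change in A549 alone did not (adjusted p = 0.0568). Groups of 3 were not searched for single outlying samples.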

How the results depend on the processing

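CDC6, CDT1, DTL and CLSPN were called lower in A549 in all settings where they were tested. Over 15 alternative settings, the fits without single samples among them, the A549 call was lost in 6 for GMNN and in 8 for TICRR. The number of genes of the set called in A549 was 4 to 5 without single samples and 7 with DESeq2 or GC correction, with CHEK1 added. A filter of 10 counts in every sample left ORC6 alone to test in A549 and over the 12 samples, with 0 calls by edgeR in A549, on the difference of responses and in DMSO. In H1792, 2 genes were called with library sizes only (TICRR, and CDC6 higher) and with GC correction (TICRR and CLSPN), 1 to 2 without single samples, and 0 without replicate 3 of both treatments, where edgeR called 0 of 10225 genes (3215 at an unadjusted p under 0.05). Between the lines in DMSO, 1 was called with library sizes only. Library sizes moved the median of all genes to 0.27 in H1792, -0.37 for the difference of responses and 0.35 in DMSO, and turned the split of calls in H1792 to 1541 higher and 249 lower.

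Over all genes, calls in A549 (665) ranged from 310 to 526 without single samples, in H1792 (1450) from 920 to 1642, and for the difference of responses (2539) from 1584 to 2978. H1792 gave 598 with the replicate block and GC correction and 3384 without the fold threshold. The difference gave 1670 with GC correction and 1531 with block and GC correction. The strict filter gave 1938 in DMSO (4073).

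Estimates near 0 changed sign, and so did the larger ones of CDC25A (3.32 for the difference of responses and -3.13 in DMSO). In H1792, CDT1 was 0.26 with library sizes, 0.0229 without a filter, 0.0669 with the strict filter, 0.54 with GC correction with or without the block, and -0.0642 to 0.0680 without single samples. With GC correction GMNN was -0.24, DTL -0.13 and CHEK1 -0.52, and with block and GC correction -0.23, -0.13 and -0.52. CHEK1 was -0.0795 without replicate 3 of both treatments and -0.00438 to 0.14 without single samples. For the difference of responses, ORC6 was 0.0115 with DESeq2, 0.00724 with RLE factors, 0.20 with GC correction, 0.16 with block and GC correction and -0.32 to 0.16 without single samples. ORC1 was -0.00648 with library sizes and -5.70 to 1.60 without single samples, and CDC25A -3.06 to 4.01. In DMSO, CLSPN was 0.0918 with library sizes, CHEK1 0.0145 with the block, ORC6 -0.0633 with GC correction, and CDC25A -3.74 to 1.72 without single samples. The cause was not tested.

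The replicate numbers did not pair the samples throughout. Deviations of same-numbered samples correlated at 0.162, 0.0749 and 0.317 in A549 and at -0.0505, -0.0270 and -0.00210 in H1792. Not every sample correlated best with its own number. In A549, however, the third samples of both treatments went together (0.317). Each of them correlated at -0.2575 to -0.1513 with the first and second samples of the other treatment. The main test had no replicate block. With the block, 5 genes of the set were called in A549, without TICRR (adjusted p = 0.0637), 1 in H1792, 6 on the difference and 2 in DMSO. With block and GC correction, CLSPN and CHEK1 were lost on the difference (adjusted p = 0.0742 and 0.0874), which left 4. Low or uneven counts limit CDC25A, ORC1 and the treated A549 values of GMNN and CHEK1, some of which rest on 0 to 2 counts.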
